A study of Mus musculus with 48 samples.

Results

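Gfi1 and Gfi1b, a pair of paralogous zinc finger repressors, were followed in single fetal liver progenitors together with 4 corepressor genes, Kdm1a, Rcor1, Hdac1 and Hdac2. The 6 genes were chosen by their symbols in the table of raw counts, which holds 24062 genes, and all 6 were found in it. Gfi1 was high in 3 of 48 cells and Gfi1b was high in 23, and no cell was high in both. The 3 Gfi1 cells were the 3 cells with the most Mpo transcript and carried almost no Gata1. Other genes may set these 3 cells apart as fully, and the share of genes that do is not given. Gfi1b was seen more often in cells with Gata1 than in cells without it. Kdm1a, Rcor1, Hdac1 and Hdac2 were each found in cells with Gata1, with Mpo, with both and with neither. Those classes count Gata1 and Mpo from 100 CPM, and from 10 CPM no cell had neither. Rcor1 leaned the same way as Gfi1b: it was found in 12 of 22 cells with Gata1 and 7 of 26 without, with overlapping intervals.

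GFI1 and GFI1B bind DNA through C-terminal zinc fingers, at sites built around the letters AATC, and recruit corepressors through a short N-terminal SNAG domain. The SNAG domain docks to LSD1, the histone demethylase encoded by Kdm1a, which removes methyl groups from lysine of histone H3 and works in a complex with the scaffold CoREST, encoded by Rcor1, and the deacetylases encoded by Hdac1 and Hdac2. In blood formation Gfi1 is known for its role in stem cells, lymphocytes and neutrophils, and Gfi1b for its role in erythroid and megakaryocytic cells. Each paralog is known to repress its own gene and the gene of the other. Gata1 encodes the main transcription factor of erythroid cells, and Mpo encodes myeloperoxidase, an enzyme of granules in neutrophil and monocyte precursors.

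All 48 cells belong to 1 group, labelled BFU-E, the erythroid burst-forming progenitor. They came from livers of mouse embryos at day 14.5 or slightly later, were depleted of cells with lineage markers, among them Gr-1, Mac-1, CD16/CD32, CD34 and CD41, were selected for c-Kit, and were sorted for the lowest CD71, the transferrin receptor. Strain, sex, litter and chip are not given per cell, and no genetic change or treatment is listed for these cells. Because cells are not replicates, the group counts as 1 sample, so counts, medians, ranges and rank correlations below describe these cells and carry no test.

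Cells held from 246007 to 3211186 counts, with a median of 1915270.5, and from 5180 to 7935 genes with a read. Levels are in CPM, counts scaled to a common library size by trimmed mean of M values, and 1 read was worth from 0.287 to 2.43 CPM, depending on the cell. A gene was called present in a cell at 10 CPM or more, a level that no cell reaches with 1 read. The erythroid label did not hold evenly by its markers: Gata1 was present in 28 cells and at 100 CPM or more in 22, whereas Mpo was at 100 CPM or more in 27. The 2 cells with the most macrophage marker transcript stood apart from the rest, and neither held Gfi1 or Gfi1b at 10 CPM. Chambers of the chip were inspected for cells, doublets were not treated further, and reads carry no molecular identifiers, so intervals cover counting error only.

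Gfi1 is the rarer paralog. It lies on chromosome 5 of GRCm38 from 107716657 to 107726036 on the minus strand. Its level was 688, 257 and 172 CPM in the 3 cells where it was present, which is 6.25% of cells (95% Clopper-Pearson interval 1.31% to 17.2%), and at most 2.11 CPM in the other 45 cells. These 3 cells held 99.2% of the summed Gfi1 CPM, and its median over the 48 cells was 0. There was no cell between 2.11 and 172 CPM, so the same 3 cells were counted at 10 and at 100 CPM. In 9 further cells Gfi1 had a read, never more than 5. An opposite-strand transcript, A430072P03Rik, overlaps Gfi1 exons, and the library kit does not mark strand, so reads from that stretch cannot be assigned to either strand.

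Gfi1b was found in many more cells, over a wide range of levels. It lies on chromosome 2 of GRCm38 from 28609450 to 28621982 on the minus strand. Its level ranged from 0 to 939 CPM, with a median of 3.90 and a mean of 164 ± 267 CPM (SD over 48 cells). It was present in 23 cells, or 47.9% (interval 33.3% to 62.8%), of which 16 had 100 CPM or more and 7 had between 10 and 100 CPM. No cell lay between 4.86 and 13.2 CPM. Among the 25 cells below that gap, 8 had no read and 11 had from 1 to 10 CPM.

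Sequences before a RefSeq start site of both paralogs are shown because each is a reported target of GFI1 and GFI1B and because Gfi1b moved with Gata1. They come from the RefSeq promoter table for GRCm38.p6, in which 5 of the 6 genes have an entry. Capitals mark AATC or GATT, the core of the site read by GFI1 and GFI1B on either strand, and GATAA or TTATC, the letters of a GATA site on either strand. For Gfi1b the 250 bases before the start are printed, and for Gfi1 30 bases around its match. The Gfi1 window belongs to the first of 2 starts in the table, which lies inside the GENCODE gene, so its printed bases are upstream of that RefSeq start but within the GENCODE gene.
Gfi1b, chr2:28621983-28622232, minus strand: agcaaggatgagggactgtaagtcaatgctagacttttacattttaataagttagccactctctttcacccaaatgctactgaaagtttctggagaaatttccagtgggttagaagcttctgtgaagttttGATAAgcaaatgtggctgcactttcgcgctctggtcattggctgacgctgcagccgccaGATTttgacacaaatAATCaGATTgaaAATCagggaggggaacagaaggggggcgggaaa
Gfi1, chr5:107725989-107726018, minus strand: ctcccgaaagcaaGATTcagtttgcacact
The Gfi1b window held 4 matches to AATC or GATT, all from 30 to 60 bases before the start, and 1 match to GATAA from 115 to 119 bases before it. Over 27025 promoters of the same length, 69.8% held at least 1 match to AATC or GATT, 7.30% held at least 4, and 23% held GATAA or TTATC. The longer letters AAATCA, which overlap the shorter core, matched once in the Gfi1b window and in 12.7% of promoters. The Gfi1 window held 1 match to AATC or GATT and none to GATAA or TTATC, the Kdm1a window held 1 match to AATC or GATT, and those of Rcor1 and Hdac2 held none. A match describes letters in this window and was not tested as a binding site.

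No cell held both paralogs at 10 CPM or more. At 10 CPM, 3 cells had Gfi1 alone, 23 had Gfi1b alone and 22 had neither, so cells with both were 0 of 48 (interval 0% to 7.40%). The product of the 2 shares is 1.44 cells, and with 3 Gfi1 cells the class could hold at most 3. At 100 CPM the counts were 0 with both, 3 with Gfi1 alone, 16 with Gfi1b alone and 29 with neither. At a single read 10 cells, or 20.8%, had both genes, since Gfi1b had a read in 40 cells, and the product of the shares is also 10 cells. At 1 CPM 3 cells had both, where the product is 4.96 cells. In the 3 Gfi1 cells Gfi1b was 0, 1.38 and 0.360 CPM, in the order of falling Gfi1. Spearman's rank correlation between the paralogs over the 48 cells was −0.171.

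**Figure D1:**
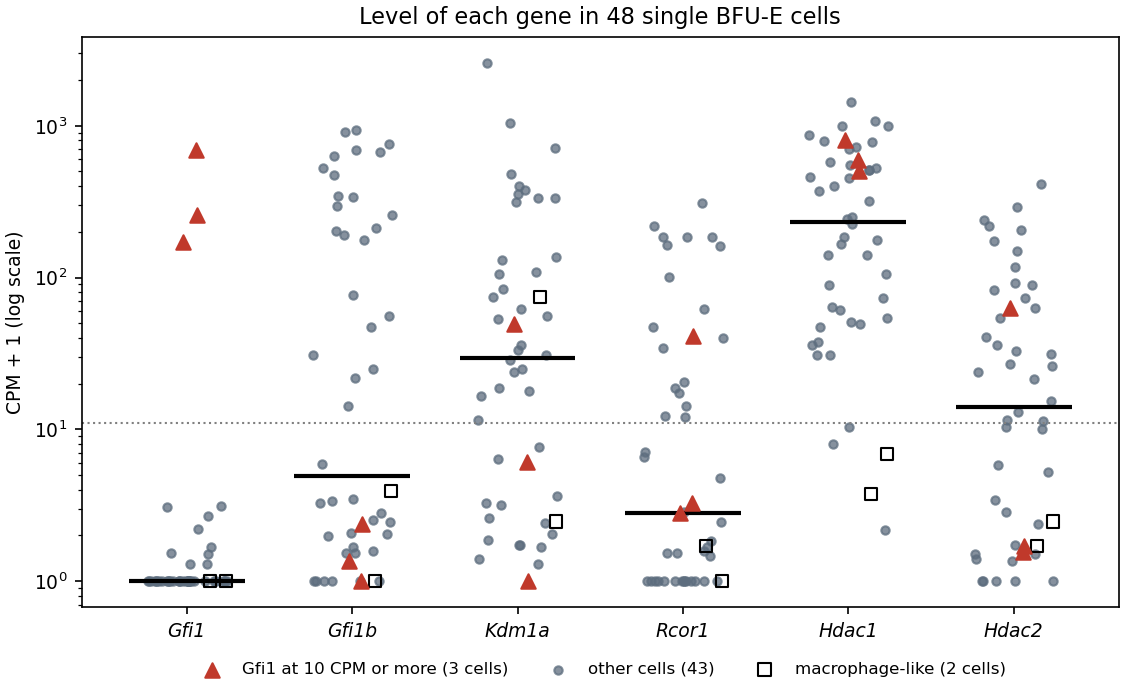
Level of each of the 6 genes in each of 48 cells, as CPM + 1 on a log axis. Triangles are the 3 cells with Gfi1 at 10 CPM or more, circles the other cells, open squares the 2 macrophage-like cells, horizontal bars the medians and the dotted line 10 CPM. Gfi1 is at 172 CPM or more in 3 cells and at most 2.11 CPM elsewhere, Gfi1b leaves a gap from 4.86 to 13.2 CPM, and Hdac1 is read in every cell.

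The 3 Gfi1 cells were the Mpo-richest cells of the 48. Mpo was 53282, 28840 and 31254 CPM in them, in the order of falling Gfi1, and at most 23704 CPM in the other 45 cells. With only 3 cells other genes may separate the 2 sets as fully, and the share of all genes that do is not given here. Elane, which encodes neutrophil elastase, was 10892, 1609 and 1690 CPM in the 3 cells, which held ranks 1, 5 and 4 of 48. Gata1 was 1.69, 2.08 and 0.720 CPM in them, and Klf1, an erythroid transcription factor, had no read. Cebpa, a factor of the granulocyte lineage, was 24.8, 0 and 3.24 CPM. Spi1, which encodes PU.1, was 12.4, 0 and 7.92 CPM. Kit, the receptor used in the sort, was 5.07, 154 and 42.5 CPM, against a median of 129 CPM over all 48 cells.

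Much Mpo or Elane did not by itself go with Gfi1. Of 18 cells with Mpo at 1000 CPM or more, 15 had no Gfi1 at 10 CPM, and of 6 cells with Elane at 1000 CPM or more, 3 had none. The rank correlation of Gfi1 with Mpo was 0.391 over the 48 cells, and 3.33% of the 8600 genes compared had a rank correlation with Mpo as high. Its rank correlation with Gata1 was −0.247, and 8.56% of genes had one as low. A rank correlation for Gfi1 rests on 12 cells with a read and on 36 ties at 0, and the cells share a library preparation and differ in depth, so it is a weak description.

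Gfi1b was present in more of the cells with Gata1. Cells were sorted into classes by Gata1 and Mpo only, each at 100 CPM. Gfi1b was present in 15 of 22 cells with Gata1, or 68.2% (interval 45.1% to 86.1%), against 8 of 26 cells without it, or 30.8% (interval 14.3% to 51.8%). Its level in the cells with Gata1 ranged from 0 to 939 CPM with a median of 65.2, against 0 to 690 CPM with a median of 1.42 in the cells without Gata1. The 2 ranges overlapped over nearly their whole length, and the intervals of the 2 shares overlapped as well. For Mpo the order was turned round: Gfi1b was present in 7 of 27 cells with Mpo, or 25.9% (interval 11.1% to 46.3%), against 16 of 21 cells without it, or 76.2% (interval 52.8% to 91.8%). Its median was 1.06 CPM in the cells with Mpo, against 200 CPM in the cells without.

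Split by both genes, the 14 cells with Gata1 alone held Gfi1b in 11 cells, at a median of 194 CPM, and Gfi1 in none. The 8 cells with both Gata1 and Mpo held Gfi1b in 4, at a median of 12.7 CPM, and Gfi1 in none. The 19 cells with Mpo alone held Gfi1b in 3, at a median of 1.05 CPM, and they included all 3 Gfi1 cells. The 7 cells with neither, of which 2 are the macrophage-like cells, held Gfi1b in 5, at a median of 258 CPM. Of these 5 Gfi1b cells, 4 held Gata1 between 10 and 100 CPM, at 16.3, 22.5, 49.9 and 66.5 CPM, and at a limit of 10 CPM no cell had neither gene. At that limit 6 cells had Gata1 alone, 22 had both and 20 had Mpo alone. Gfi1b was present in 5, 14 and 4 of them, in that order. At 100 CPM the shares of Gfi1b with neither gene and with Gata1 alone, 5 of 7 and 11 of 14, lie within counting error.

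**Figure D2:**
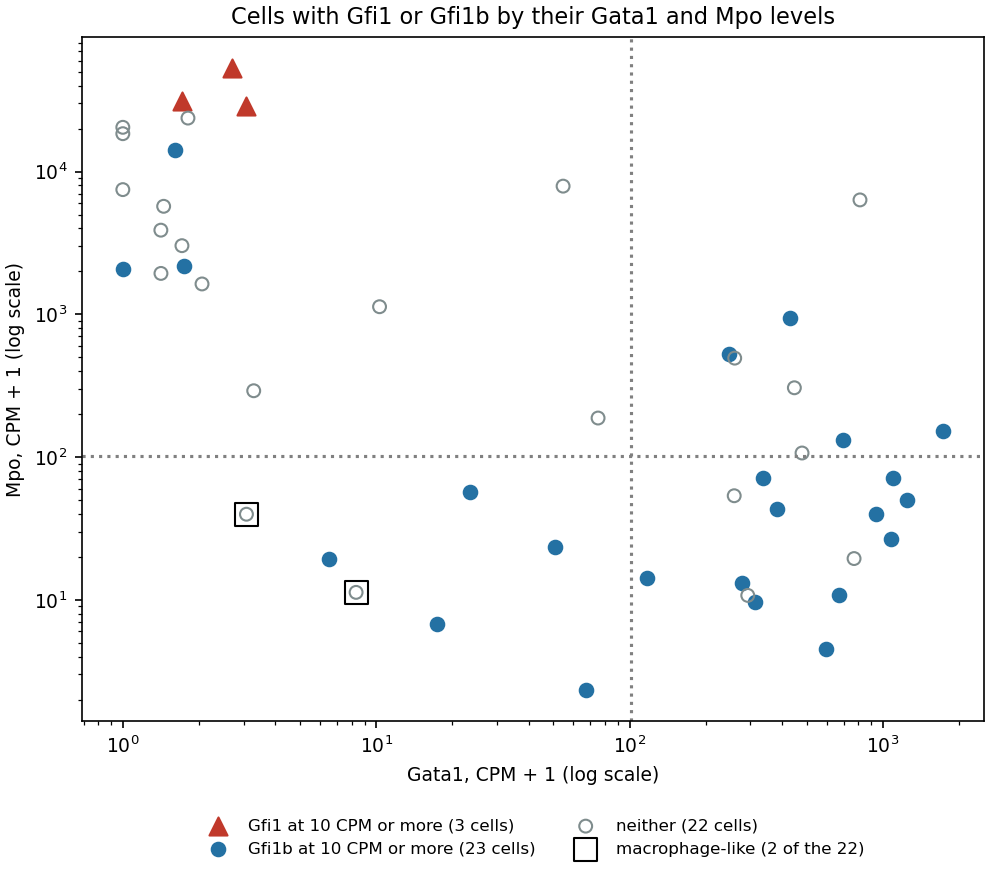
Each of 48 cells by its Gata1 level (horizontal) and Mpo level (vertical), both as CPM + 1 on log axes, with dotted lines at 100 CPM. Triangles are the 3 cells with Gfi1 at 10 CPM or more, filled circles the 23 cells with Gfi1b, open circles the 22 cells with neither, and squares mark the 2 macrophage-like cells. The 3 Gfi1 cells sit at the top left, and 16 of the 23 Gfi1b cells lie under the Mpo line.

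The rank correlations gave the same order. The rank correlation of Gfi1b with Gata1 was 0.424, the 112th of 8600 genes, and 1.30% of genes had one as high. Its rank correlation with Mpo was −0.532, the 24th from the bottom, and 0.279% of genes had one as low. A rank correlation of 0.3 in size was used as the limit for a count. Of the 6 genes, Gfi1b alone passed it upward with Gata1, which 5.57% of all genes did, and none passed it downward, which 5.34% did. With Mpo, Gfi1 passed upward, as 7.41% of all genes did, and Gfi1b downward, as 4.1% did. The rank correlation of Gfi1b with Klf1 was 0.361, with Elane −0.398, with Spi1 −0.399 and with Cebpa −0.520.

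Presence at 10 CPM went in the same direction for single genes of both lineages. Klf1 was present in 13 of the 23 Gfi1b cells, against 3 of the 25 cells without Gfi1b. Elane was present in 2 of the Gfi1b cells, against 11 of the cells without it. Cebpa was present in none of the Gfi1b cells, against 4 of the cells without it. Gata1 itself was present at 10 CPM in 19 of the Gfi1b cells, against 9 of the cells without it. With a limit of 100 CPM for both genes of a pair the contrast for Klf1 was small, 25% of Gfi1b cells against 18.8% of the others. At that limit Elane was at 6.25% against 21.9%, Cebpa at 0% against 3.13% and Gata1 at 62.5% against 37.5%. No share of all genes with such differences is given here.

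The exceptions ran both ways. In 4 cells Gfi1b was present with Gata1 under 10 CPM. Their Gfi1b was 669, 340, 175 and 20.7 CPM, and their Mpo was 2077, 18.3, 14225 and 2166 CPM in the same order. All 4 held Car2, a carbonic anhydrase gene counted here as an erythroid marker, at 1776, 1382, 409 and 256 CPM. Car2 had the highest rank correlation with Gfi1b of all genes compared, 0.663, so its presence in Gfi1b cells adds no separate evidence. Car2 was present in 35 of the 48 cells, and Klf1 had no read in any of the 4. The third of them also held Elane at 647 CPM. Conversely, 7 of the 22 cells with Gata1 at 100 CPM had Gfi1b under 10 CPM, at 0 to 4.86 CPM, with Gata1 from 258 to 811 CPM. Of these 7 cells, 2 were among the shallowest, with 246007 and 357378 counts.

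Summed markers of the erythroid and of the neutrophil and monocyte lineage differed between cells of the 2 paralogs. Mpo made up most of the neutrophil and monocyte sum in the Gfi1 cells, at 28840 to 53282 CPM. The erythroid sum includes Gata1, so neither difference is separate from the results above. The summed level of 12 erythroid genes, Gata1 among them, was 38.3 to 410 CPM in the 3 Gfi1 cells, 436 to 6281 CPM (median 2715) in the 23 Gfi1b cells and 2.90 to 4077 CPM (median 498) in the 22 cells with neither. Of the 12, 6 were at 0 in all Gfi1 cells and 1 was at 0 in all Gfi1b cells. The summed level of 12 neutrophil and monocyte genes, Mpo among them, was 34197 to 72752 CPM in the Gfi1 cells, 6.61 to 16537 CPM (median 68.3) in the Gfi1b cells and 29.2 to 30654 CPM (median 2695) in the cells with neither. Gr-1, Mac-1 and CD16/CD32, which mark such cells on the surface, were among the markers removed in the sort. The summed level of 7 megakaryocyte genes was 1.13 to 61.2 CPM in the Gfi1 cells, 0 to 2588 CPM (median 84.9) in the Gfi1b cells and 0.673 to 2288 CPM (median 168) in the cells with neither, so it was no higher at the median in Gfi1b cells than in cells with neither. CD41, a surface marker of megakaryocytes, was depleted in the sort. The part of these cell types in the counts of Gfi1 and Gfi1b was not tested.

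Markers of other cell types were low in the Gfi1 cells and low at the median in the Gfi1b cells, some of which held more. The summed level of 6 mast cell and basophil genes had a median of 1.69 CPM and a highest value of 17.3 CPM in the Gfi1 cells, 0.611 and 1043 CPM in the Gfi1b cells, and 1.23 and 2247 CPM in the cells with neither. For 8 macrophage genes the highest sums were 1.13 CPM in the Gfi1 cells, 842 CPM in the Gfi1b cells and 33885 CPM in the cells with neither, where the 2 macrophage-like cells are found. For 6 lymphoid genes the highest sums were 0.360, 140 and 170 CPM in the same order of cells. For 4 hepatoblast genes no cell exceeded 4.87 CPM.

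**Figure D3:**
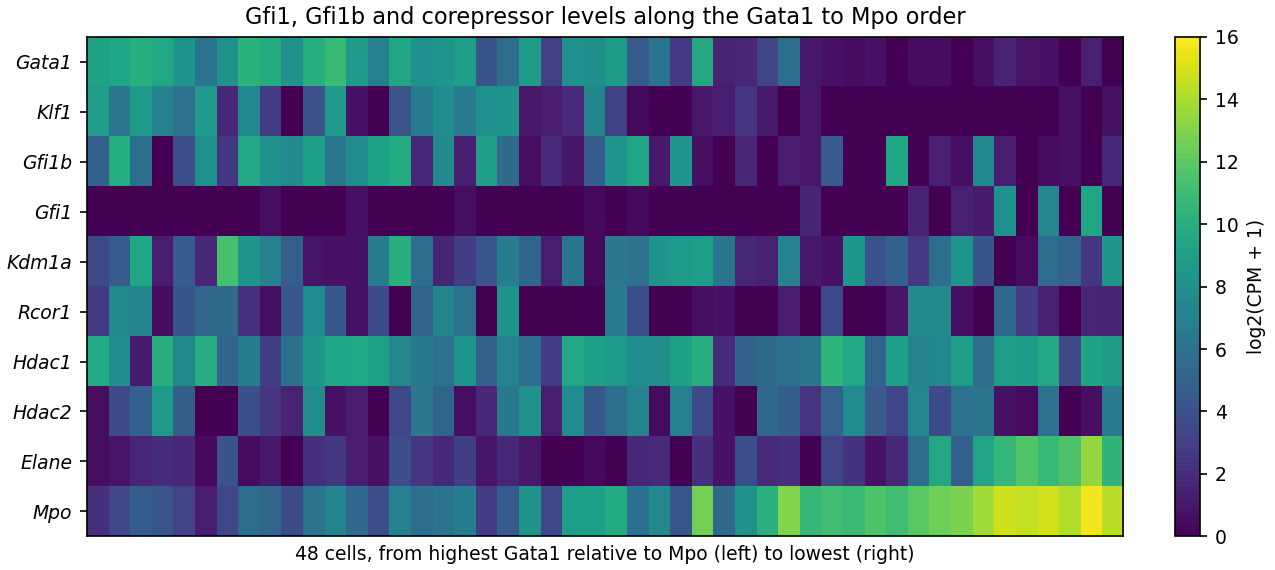
Levels of 10 genes (rows) in 48 cells (columns) as log2(CPM + 1), from dark at 0 to bright at the top of the scale, with cells ordered from the highest Gata1 relative to Mpo on the left to the lowest on the right. Gfi1b is bright mainly on the left, Gfi1 in 3 cells on the far right, and Kdm1a, Rcor1, Hdac1 and Hdac2 along the whole order.

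Each corepressor gene was present in some cells of all 4 classes of Gata1 and Mpo at 100 CPM. In the 2 macrophage-like cells Kdm1a alone reached 10 CPM, in 1 of them. Kdm1a, the demethylase, lies on chromosome 4 of GRCm38 from 136550540 to 136602723 on the minus strand. It was present in 31 cells, with a level from 0 to 2605 CPM, a median of 28.6 and a mean of 170 ± 414 CPM (SD over 48 cells). The cell with the most Kdm1a was among the shallowest, with 357378 counts. In the 3 Gfi1 cells Kdm1a was 5.07, 0 and 48.2 CPM, in the order of falling Gfi1. It was present in 16 of the 23 Gfi1b cells, against 15 of the 25 cells without Gfi1b.

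Rcor1, the scaffold between LSD1 and the deacetylases, was the least often present of the 4. It lies on chromosome 12 of GRCm38 from 111039351 to 111115901 on the plus strand. Its level ranged from 0 to 310 CPM, with a median of 1.82 and a mean of 38.4 ± 72.8 CPM, and it was present in 19 cells. In the 3 Gfi1 cells it was 2.26, 40.1 and 1.80 CPM. Rcor1 was present in 13 of the 23 Gfi1b cells, or 56.5% (interval 34.5% to 76.8%), against 6 of the 25 cells without Gfi1b, or 24% (interval 9.36% to 45.1%), and these intervals overlap. By Gata1 at 100 CPM, Rcor1 was present in 12 of 22 cells with Gata1 (54.5%) and 7 of 26 without (26.9%). By Mpo at 100 CPM, it was present in 7 of 27 cells with Mpo (25.9%) and 12 of 21 without (57.1%). The intervals of each pair overlapped. Its rank correlation with Gata1 was 0.246, and 9.80% of genes had one as high. Gm48632, a transcript on the same strand, overlaps Rcor1 exons, so some Rcor1 reads are uncertain.

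Hdac1 was the most widely present of the 6 genes. It lies on chromosome 4 of GRCm38 from 129516104 to 129542713 on the minus strand. Every cell had a Hdac1 read, 43 cells had 10 CPM or more, and its level ranged from 1.18 to 1440 CPM, with a median of 232 and a mean of 358 ± 354 CPM. In the 3 Gfi1 cells it was 598, 500 and 805 CPM, all above its median. Presence was seen in 21 of the 23 Gfi1b cells, against 22 of the 25 cells without Gfi1b. RefSeq lists a copy of the gene, Hdac1-ps, which may share its reads, so its level is uncertain. In the 2 macrophage-like cells Hdac1 was 2.77 and 5.87 CPM, among the lowest of the 48.

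Hdac2, its close relative, was lower. It lies on chromosome 10 of GRCm38 from 36974544 to 37001889 on the plus strand. It was present in 27 cells, with a level from 0 to 411 CPM, a median of 13.1 and a mean of 54.8 ± 88.6 CPM. In the 3 Gfi1 cells it was 0.564, 0.692 and 61.9 CPM. Hdac2 was present in 13 of the 23 Gfi1b cells, against 14 of the 25 cells without Gfi1b. Its rank correlation with the number of genes detected in a cell was 0.414, the highest of the 6 genes, and the part of depth in its values was not tested.

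Against all genes, 5 of the 6 were present in more cells than the median gene. The 8601 genes that were read in 10 cells or more and averaged 5 CPM or more were present at 10 CPM in a median of 17 cells, with quartiles of 9 and 30. Hdac1, Kdm1a, Hdac2, Gfi1b and Rcor1 stood above that median, with 43, 31, 27, 23 and 19 cells, and Gfi1 stood below the lower quartile with 3. Levels between genes were compared per kilobase of exon. Hdac1 averaged 104 ± 103 and Gfi1b 89.9 ± 146 CPM per kilobase (SD over 48 cells), followed by Kdm1a at 32.8, Hdac2 at 12.3, Gfi1 at 7.37 and Rcor1 at 6.75 CPM per kilobase. Each step between neighbours in that order was smaller than the larger SD of the pair over cells. The place of Gfi1 rests on 1 cell: without the cell of its highest level, an alternative chosen after seeing the data, it averaged 2.93 CPM per kilobase, below Rcor1 at 5.73 without its own highest cell, and its median was 0, against 0.320 for Rcor1. Hdac1 was the highest of the 6 per kilobase in 26 cells, Gfi1b in 14, Kdm1a in 5, and Gfi1, Rcor1 and Hdac2 in 1 cell each.

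None of the 4 corepressor genes passed a rank correlation of 0.3 in size with Gata1, Mpo, Gfi1b or Gfi1. The rank correlation ranged from −0.0152 to 0.246 with Gata1 and from −0.179 to 0.150 with Mpo. It ranged from −0.0698 to 0.276 with Gfi1b, where 4.33% of all genes passed upward and 3.08% downward. It ranged from −0.263 to 0.113 with Gfi1, where 3.34% passed upward and 1.47% downward. Rcor1 was the highest of the 4 with Gfi1b, the 508th of 8600 genes, and 5.91% of genes were as high. The 6 pairs among the 4 genes themselves ranged from −0.160 to 0.170.

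**Figure D4:**
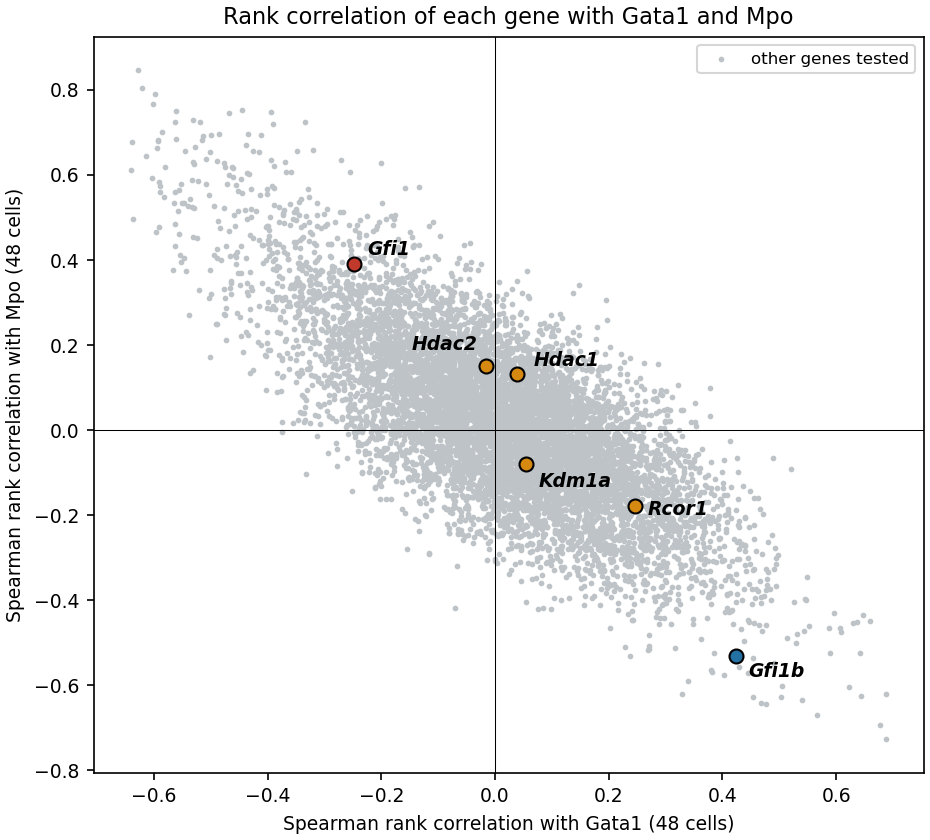
Spearman's rank correlation of each gene with Gata1 (horizontal) and with Mpo (vertical) over 48 cells, for the genes tested, with the 6 genes named. Gfi1b lies at the lower right (0.424 and −0.532), Gfi1 at the upper left (−0.247 and 0.391), and the 4 corepressor genes near the middle of the cloud.

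Kdm1a, Rcor1 and at least 1 of the 2 deacetylases were present together in 11 of 48 cells. This was so in 0 of the 3 Gfi1 cells, 8 of the 23 Gfi1b cells and 3 of the 22 cells with neither paralog. Rcor1 by itself was present in 1, 13 and 5 of them in the same order, and Kdm1a in 1, 16 and 14. Whether the genes were together more often than their single shares give was not tested. All 4 genes were present in 5 Gfi1b cells and in 2 cells with neither. A deacetylase was present in 3 of 3 Gfi1 cells, 22 of 23 Gfi1b cells and 19 of 22 cells with neither. At the depth of single cells a gene under 10 CPM was not shown to be absent.

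A wider list held 26 genes of CoREST and related corepressors, 19 of which passed the filter on low values. With Gfi1b, 1 passed upward, Hdac3 (rank correlation 0.343), a deacetylase of another complex, and none downward, while over all genes 4.33% passed upward and 3.08% downward. The median rank correlation of the list with Gfi1b was 0.0692, against 0.0215 over all genes. With Gata1, 2 passed upward, Ctbp1 (0.377) and Cbfa2t3 (0.308), both corepressors, and none downward, beside 5.57% upward and 5.34% downward over all genes. With Mpo none passed in either direction, beside 7.41% and 4.1% over all genes. With Gfi1, Zmym2 (0.392) passed upward and Gse1 (−0.337) downward, both of them proteins found with LSD1, beside 3.34% upward and 1.47% downward over all genes.

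Of 24 genes reported as targets of GFI1 or GFI1B, written down from general knowledge, 17 passed the filter. With Gfi1b, 16 could be compared. Tgfbr3, the type III TGF-beta receptor, passed upward at 0.514. Spi1 at −0.399 and Irf8, a monocyte and dendritic cell factor, at −0.345 passed downward, beside 4.33% upward and 3.08% downward over all genes. The median rank correlation was −0.135, against 0.0215 over all genes. With Gfi1, Irf8 passed upward at 0.336, beside 3.34% over all genes. Tgfbr3 at −0.345 and Id2, an inhibitor of helix-loop-helix factors, at −0.324 passed downward, beside 1.47% over all genes. Tgfbr3 was present in 18 of the 23 Gfi1b cells, against 6 of the 25 cells without Gfi1b. With a limit of 100 CPM for both genes the shares were 50% and 21.9%, and no share of all genes is given beside them. With Gata1, 2 of the 17 passed upward, Gfi1b itself and Tgfbr3 (0.677), and 5 passed downward, beside 5.57% and 5.34% over all genes. With Mpo, 6 passed upward, Gfi1 among them, and 2 downward, Gfi1b and Tgfbr3 (−0.693), beside 7.41% and 4.1% over all genes. The values of Gfi1 and Gfi1b in these counts are those given above.

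None of 7 other genes whose proteins carry a SNAG domain passed the filter. Snai2 had a read in 31 cells but no more than 11.7 CPM in any, and Insm1 had a read in 24 cells and no more than 2.22 CPM. Gfi1 and Gfi1b were the SNAG genes with a level of 100 CPM or more in any cell among those listed.

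The genes with the highest rank correlation with Gfi1b over the 48 cells were Car2 (0.663), Icam4 (0.568), Aasdh (0.564), Slc14a1 (0.562) and Prelid2 (0.547), followed by Gm15915, Myh10, Igsf3, Cpox and Ak3 (0.514 to 0.539). Icam4 encodes an erythroid adhesion molecule, Slc14a1 the urea transporter of red cells, and Cpox an enzyme of haem synthesis. The lowest were Cd52 (−0.631), Lcp1 (−0.591), Gpr97 (−0.573), Plin3 (−0.554) and Plac8 (−0.544). Lcp1 encodes the leukocyte actin bundler L-plastin, and Cd52 a surface glycoprotein of leukocytes. For Gfi1 the highest were BC026585 (0.529), Clec12a (0.527), a myeloid lectin, Arl11 (0.511), Gtf2ird1 (0.496) and Nfic (0.487), then Zfp850, Cybb, Pde2a, Tfec and Atg5 (0.460 to 0.478). Clec12a was at 213 CPM or more in the 3 Gfi1 cells, against a median of 0.331 CPM in the other 45. It was at 10 CPM or more in 11 of the 48 cells. Because Clec12a was picked by its correlation in these same cells, that gap adds no separate evidence. The lowest with Gfi1 were Zfp617 (−0.535), Myef2 (−0.510), Zc3h7a (−0.505), Sik3 (−0.489) and Cnot6l (−0.486).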

How the data were processed

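The transcripts of single cells were amplified by SMART-Seq in a Fluidigm C1 system, per the labels' protocols. The submitters' processing notes name TopHat2 2.0.12, featureCounts 1.4.6 and mm10. The authors deposited raw counts per gene and a table of log2 values, which equals log2 of count over size factor plus 1 within 1e-06. The log2 table was not used for results. Columns of both tables carry names other than the sample titles, and nothing but the group is known of a given cell.

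CPM used trimmed mean of M values from edgeR 4.0.16 in R 4.3.3, with factors from 0.419 to 1.70, and Python 3.11.15 with numpy 2.4.6, scipy 1.17.1 and pandas 2.3.3. Figures used matplotlib 3.10.9. Genes compared, 8601 in all, were read in 10 cells or more and averaged 5 CPM or more. Exon lengths and positions are from GENCODE for GRCm38. The rank step was tested on simulated data. Named genes are the 6 genes, lineage genes, list members beside their count, and the 10 highest and 5 lowest in rank correlation with each paralog. The 6 genes and lists were chosen with earlier results of these data known. Kit values per cell, the limit of 1000 CPM for Elane, a read as limit for detection, and levels without the highest cell were chosen after seeing the data. Alternatives were plain totals, DESeq2 1.42.0 size factors, leaving out cells, thinning every cell to 246007 counts, other limits, no filter and Pearson r.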

Additional observations from a re-analysis of the deposited data

How the results depend on the processing

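For the main counts, correlations and levels, 79 alternatives kept the value within its tolerance (0.1 for a rank correlation, the 95% binomial interval for a share, 1 SD over cells for a level per kilobase) and 3 did not. Those 3 all counted a cell at a single read: Gfi1 was then found in 25% of cells, Gfi1b in 83.3% and both in 20.8%. The alternatives for a level per kilobase, counted among the 79, only left out the cell of the highest level. Leaving out 1 cell cannot move a mean over this many cells by 1 SD, so these alternatives had to stay within tolerance. They do not show that the levels are stable: mean Gfi1 fell from 7.37 to 2.93 CPM per kilobase and still counted as kept. Of the alternatives for other values, 131 stayed within tolerance and 11 moved, and no rank correlation of 0.3 or more in size changed sign. In the corepressor list the genes past the limit upward with Gfi1b were 5 at a rank correlation limit of 0.2, 1 at 0.3 and 0 at 0.4, and in the target list those downward were 6, 2 and 0. Over other scalings, left-out cells and thinning, Gfi1 was present in 6.25% to 6.98% of cells, Gfi1b in 45.8% to 51.2%, and both in 0%. Gfi1 had no cell between 2.11 and 172 CPM. Other scalings and thinning, also counted among the 79, could therefore hardly move its share or the 0% with both. Gfi1b was present in 61.9% to 75% of cells with Gata1 and in 24% to 25.9% of cells with Mpo. With Mpo limits of 10 and 1000 CPM in place of 100, the share of Mpo cells with Gfi1b was 42.9% and 16.7%. Both counted as kept, because the interval is wide, from 11.1% to 46.3%. Over all alternatives, Pearson r among them, the correlation of Gfi1b with Gata1 ranged from 0.405 to 0.489. That of Gfi1b with Mpo ranged from −0.582 to −0.468, and that of Gfi1 with Mpo from 0.381 to 0.486. Rcor1 with Gfi1b ranged from 0.265 to 0.326, and Gfi1 with Gata1 from −0.319 to −0.236. Both of these pairs passed 0.3 in size by rank under some settings. The ends 0.486, 0.265 and −0.319 are Pearson r, not rank correlations. No paired analysis was possible because there is only 1 group. What is said of Gfi1 rests on 3 cells.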

Other observations

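Measured by Pearson r of log2(CPM + 1), the 5 genes most like Gfi1 were not among its 10 highest by rank, while BC026585, its highest by rank, came 6th by Pearson r (0.679) and Myef2 was the second lowest by both. The highest with Gfi1 were Fcnb (0.820), S100a8 (0.786), Stfa1 (0.746), Hp (0.720) and Gda (0.703), of which Fcnb, S100a8 and Hp encode proteins of neutrophil granules or cytosol. Hp was at 244 CPM or more in all 3 Gfi1 cells, against a median of 0 CPM in the other 45 cells. Over all cells, 7 held Hp at 10 CPM or more. Because Hp was picked by its correlation in these same cells, that gap adds no separate evidence. The same holds for the neutrophil proteins named, since Fcnb and S100a8 were picked in the same way. Fcnb and S100a8 were each at 10 CPM or more in 2 cells only, and under 1 CPM in at least 1 of the Gfi1 cells. Car2 led with Gfi1b by Pearson r as well, at 0.717.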
